A study of Mus musculus with 4 samples.

Results

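The connective tissue growth factor gene Ctgf, its CCN relatives Cyr61 and Nov, and genes of the YAP pathway were followed across the cell classes of mouse kidney glomeruli. The 8 genes were Ctgf, Cyr61, Nov, Ankrd1, Amotl1, Amotl2, Yap1 and Wwtr1, found by symbol among 52636 listed genes, and each symbol belonged to 1 gene ID. They were selected on these same UMI counts, young against aged in each class, where Ctgf had shown opposite directions in podocytes and mesangial cells. Their differences between ages are therefore descriptions without a test, whereas the genes of the surrounding pathway lists were tested.

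Glomeruli, the filtering tufts of the kidney, were collected on a magnet after mice had been perfused with beads, then digested to single cells. Untreated young mice gave 2 libraries and untreated aged mice gave 2 libraries. The labels used here give age only as young or aged, and they state neither strain, sex nor whether each library came from separate mice. The p-values thus measure the spread between these libraries, which may be technical.

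The transcription coactivators YAP (Yap1) and TAZ (Wwtr1) bind no DNA themselves and act through the TEAD factors. The Hippo kinases hold them in the cytoplasm, and cell stretch, spreading and actin tension release them. Ctgf, Cyr61 and Ankrd1 are classical targets. Ctgf and Cyr61 encode secreted matricellular proteins that bind integrins and heparan sulphates, and Ctgf is a widely used marker of fibrosis. Amotl1 and Amotl2 encode angiomotin-like scaffolds that bind YAP and TAZ, and Amotl2 is itself a target. In podocytes, the epithelial cells that wrap the capillaries, YAP is known to be needed for survival. Mesangial cells are the contractile pericytes of the tuft.

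All 8 genes are protein coding, and GENCODE vM21 places them in GRCm38 as follows. Ctgf (Ccn2 in that annotation) lies on chr10:24595442-24598683, Cyr61 (Ccn1) on chr3:145646976-145649981 and Nov (Ccn3) on chr15:54745702-54754039. Ankrd1 lies on chr19:36111961-36120099, Amotl1 on chr9:14541966-14645056 and Amotl2 on chr9:102716672-102733418. Yap1 lies on chr9:7931999-8004596 and Wwtr1 on chr3:57455649-57575910. Ctgf overlaps Gm15270 on the opposite strand, which had 96 to 147 UMIs per library against 7824 to 16636 for Ctgf. The genes that overlap Amotl1, Yap1 and Wwtr1 had at most 1 UMI in any library.

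TEAD factors bind a core of 6 bases, GGAATG, read CATTCC on the other strand. Both strands of the 250 bases before each RefSeq transcription start (GRCm38.p6) were searched for it. RefSeq windows were found for 6 of the 8 genes, all except Ctgf and Nov, and 5 of the 6 genes held the core, all except Amotl1. The core was present in 12.6% of the 32851 windows of that table. The matches are shown because they place the pathway's own DNA element beside the genes measured. Each stretch of 26 bases below is written along its gene's strand, with the core in capitals.

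Ankrd1, first match, 210 bases upstream, chr19:36120039-36120064, minus strand: cactgccaaaGGAATGaccctctcac

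Ankrd1, second match, 123 bases upstream, chr19:36119952-36119977, minus strand: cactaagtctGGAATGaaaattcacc

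Cyr61, 103 bases upstream, chr3:145650073-145650098, minus strand: cgccaaccaaCATTCCtgagatgttt

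Amotl2, 65 bases upstream, chr9:102717729-102717754, plus strand: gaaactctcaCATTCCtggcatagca

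Yap1, 141 bases upstream, chr9:8004722-8004747, minus strand: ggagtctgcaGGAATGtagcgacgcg

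Wwtr1, 136 and 170 bases upstream of 2 RefSeq starts, chr3:57576031-57576056, minus strand: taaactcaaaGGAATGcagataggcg

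In GENCODE vM21 the matches of Cyr61, Yap1 and Wwtr1 lie upstream of every transcript of their gene. Those of Ankrd1 and Amotl2 lie inside an exon of a longer transcript that starts before the RefSeq one. A match describes letters in a window and does not show that a factor is bound there.

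The 4 libraries held 5532 to 10621 barcodes and 18457791 to 42046542 unique molecular identifiers (UMIs, each counting 1 captured RNA molecule). After filtering, 28000 cells were left in 21 clusters, of which 15 were named by a marker list. The 6 others met the level of a list too, but also held markers of an unrelated class and are called mixed. Podocyte-like, endothelial-like and mesangial-like cells, named without the suffix from here on, numbered 4003, 14165 and 1616. In podocytes all 8 podocyte markers were detected in each library, at a summed 21059 to 22800 CPM, and the mesangial class had all 5 of its markers. CPM is a gene's UMIs after scaling those of the class to a common total. A further 185 cells, 30 to 63 per library, met the level for the epithelium that lines Bowman's capsule (parietal epithelium). They are called cluster 16, since none of the 6 parietal markers was among its top 10 genes, led by Pcp4, Spp1 and Igfbp2, while the smooth muscle marker Tagln was. All 6 parietal markers were detected there and summed to 1886 and 2910 CPM in young and 2423 and 2013 CPM in aged libraries. The smooth muscle and renin markers summed to more in 3 of 4 libraries (2237, 2508, 3885 and 3256 CPM). Only 2, 4, 3 and 2 of those 7 markers were detected, with Cnn1 and Akr1b7 at 0 in every library. Young replicate 2 stood apart: its kept cells had a median of 1258 UMIs against 2715 to 3730 in the other libraries, and 3983 of them fell in clusters of mixed markers against 194 to 219 elsewhere. Any pair of libraries shared 9 to 31 barcodes.

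Ctgf was most abundant in mesangial cells and showed its largest difference between ages in podocytes. In podocytes the young libraries had 157 and 153 CPM and the aged libraries 640 and 586 CPM (scaled here and in the age comparisons by TMM over the genes that passed the expression filter). Both aged libraries lay far above both young ones, 613 ± 38.8 against 155 ± 2.36 CPM (SD, n = 2 each), a 3.95-fold higher mean. The log2 difference was 1.98. It stayed between 1.81 and 2.05 when any library was left out and under each other processing alternative.

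In mesangial cells Ctgf lay the other way. The young libraries had 1959 and 2191 CPM and the aged ones 1055 and 1562 CPM. Both aged libraries were below both young ones, at 0.631 times the young mean (log2 difference -0.66), but the aged libraries differed from each other by a good part of that gap. Without aged replicate 1 the log2 difference was -0.40, and without aged replicate 2 it was -0.96. With clusters of mixed markers kept in the mesangial class it was -0.094. The larger mixed cluster nearest to mesangial held 145 and 1385 cells of young replicates 1 and 2, at 1141 and 1014 CPM of Ctgf. Both values were below the young mesangial level, and the cluster held 4 and 6 aged cells. Another mixed cluster nearest to mesangial held 3 and 3 young cells and 47 and 90 aged cells. Its aged cells had 557 and 697 CPM of Ctgf, below the aged mesangial level. The 5 mesangial markers summed to 8655 and 8663 CPM in young and 8287 and 7866 CPM in aged mesangial cells. All 8 endothelial markers were detected there too and summed to 1292 and 1318 CPM young and 1588 and 1729 CPM aged. The parietal list summed to 193 and 237 CPM young and 394 and 505 CPM aged. Of its 6 markers 2 and 5 were detected in young and 4 and 4 in aged libraries, with Pax2 at 0 throughout. The part of these endothelial and parietal markers in the Ctgf difference was not tested.

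Cluster 16 had 536 and 615 CPM of Ctgf when young and 1345 and 1005 CPM when aged, without overlap (log2 difference 1.02). These values rest on 71 and 104 young and 309 and 348 aged UMIs. Endothelial cells had 16.9 and 20.3 CPM young and 40.6 and 29.3 CPM aged (log2 difference 0.92), also without overlap. The 5 mesangial markers, all detected, moved with it in endothelial cells, at 33.1 and 61.6 CPM young and 96.9 and 110 CPM aged, or 0.383% and 0.711% against 1.17% and 1.40% of the mesangial level. Their part in the endothelial difference was not tested. Smooth muscle and renin cells, a class of 36 to 70 cells per library, held 228 and 242 CPM of their UMIs in young and 237 and 243 CPM in aged libraries. The difference there was smaller than the gap between the young libraries.

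**Figure D1:**
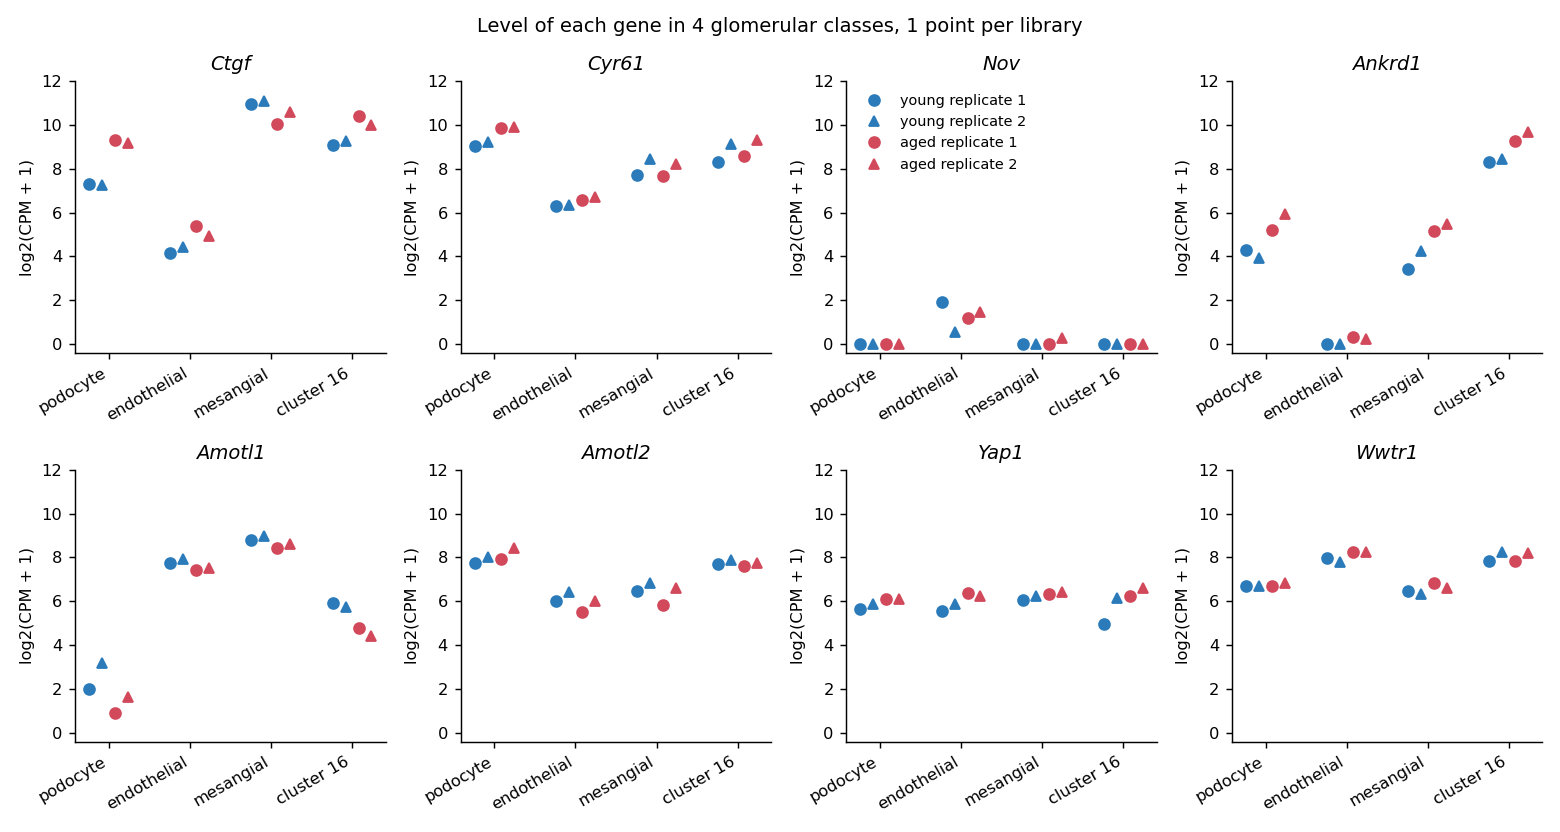
Level of each of the 8 genes as log2(CPM + 1) in podocytes, endothelial cells, mesangial cells and cluster 16, with 1 point per library (blue young, red aged; circles replicate 1, triangles replicate 2). Ctgf sits higher in the aged libraries in podocytes (640 and 586 against 157 and 153 CPM) and lower in mesangial cells (1055 and 1562 against 1959 and 2191 CPM), while Ankrd1 sits higher with age in podocytes, mesangial cells and cluster 16.

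Both the share of podocytes with Ctgf and the number of UMIs per cell were higher in the aged libraries. The median podocyte had 0 Ctgf UMIs in both young libraries and 2 in both aged ones, and the highest cell had 13 and 15 against 46 and 51. The libraries differ in depth, so each cell was thinned at random to 1000 UMIs and shallower cells were left out (1 to 28 podocytes per library). A Ctgf UMI was then found in 11.6% and 14.5% of young podocytes and in 36.4% and 34.1% of aged ones. Without thinning the young shares were 36.7% and 39.7%, and the aged shares 76.4% and 79.0%. The young and aged shares did not overlap on either scale.

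In mesangial cells thinned the same way (2 to 16 cells left out per library), Ctgf was found in 79.4% and 76.2% of young and 49.0% and 66.2% of aged cells. B cells, which should lack Ctgf, gave 0%, 1.72%, 0.971% and 4% in the same order of libraries. No Ctgf UMI among 97 thinned B cells of young replicate 1 allows up to 3.73% of such cells with a UMI (exact 95% binomial interval, counting error only). The endothelial share of 1.59% to 3.15% lay within the B cell range, but was above the B cell share in each library except aged replicate 2. The 4% of that library rests on 2 Ctgf UMIs among 50 B cells. The podocyte and mesangial shares were well above the B cell range.

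**Figure D2:**
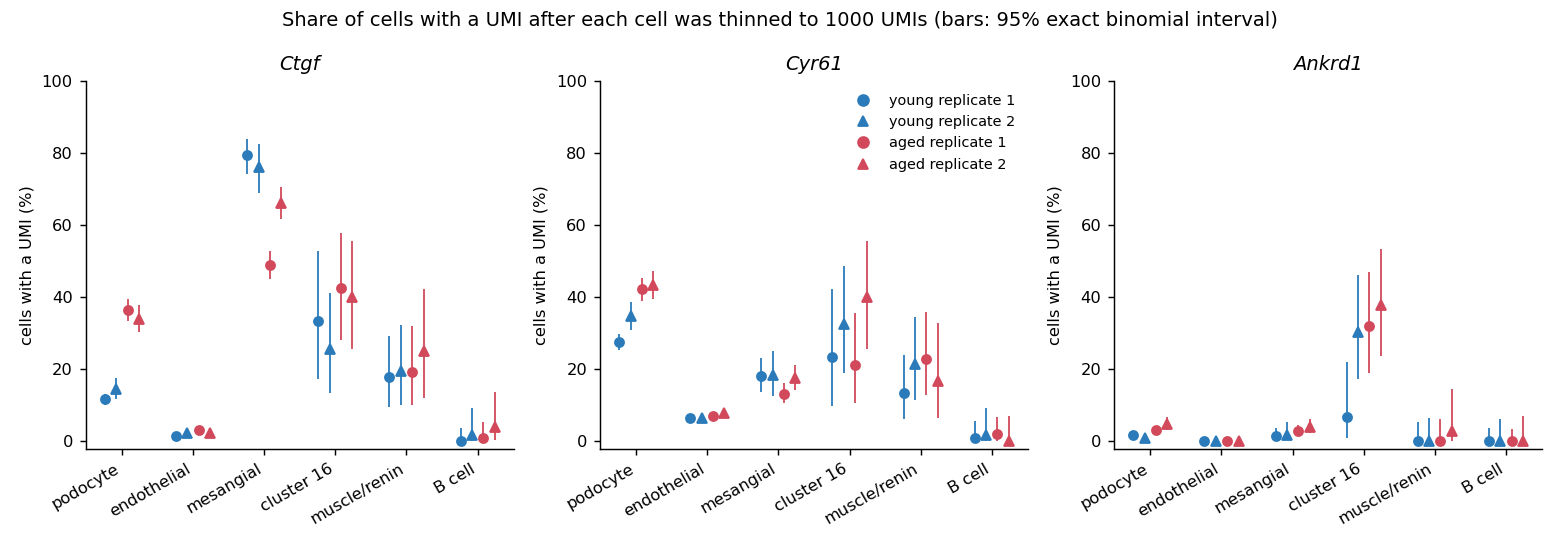
Percent of cells with at least 1 UMI of Ctgf, Cyr61 or Ankrd1 after thinning each cell to 1000 UMIs, by class and library (colours and symbols as in the plot of levels), with exact 95% binomial intervals that cover counting error only. For Ctgf the young and aged points part in opposite directions in podocytes (11.6% and 14.5% against 36.4% and 34.1%) and mesangial cells (79.4% and 76.2% against 49.0% and 66.2%), and B cells show the background.

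The higher podocyte level was present in both podocyte clusters. Cluster 2, led by Gas1, Nupr1 and Col4a3, had 177 and 171 CPM of Ctgf in young and 668 and 603 CPM in aged libraries. Cluster 8, led by Nphs1 and Cdkn1c, had 111 and 119 CPM young and 515 and 407 CPM aged. The 5 mesangial markers together summed to 27.6 and 26.2 CPM in young podocytes and 21.0 and 16.8 CPM in aged ones, with Gata3 at 0 in both aged libraries. The smooth muscle and renin markers summed to 22.9 and 28.6 CPM in young and 51.8 and 49.7 CPM in aged podocytes. Cells with clear markers of an unrelated class had been set aside before these sums. The part of either list in the podocyte Ctgf difference was not tested.

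Endothelial Ctgf came mostly from 1 cluster in 3 of the 4 libraries, all except young replicate 2. Cluster 4, led by Esm1, Igfbp3 and Slc45a4, had 198, 190, 242 and 184 CPM in young replicates 1 and 2 and aged replicates 1 and 2, so its level overlapped between ages. It held 8.66% and 4.58% of young and 16% and 13.7% of aged endothelial cells. That cluster supplied 73.1%, 34.1%, 71.0% and 64.7% of endothelial Ctgf UMIs. When cells were named one by one, without clusters, the endothelial log2 difference was 0.24.

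**Figure D3:**
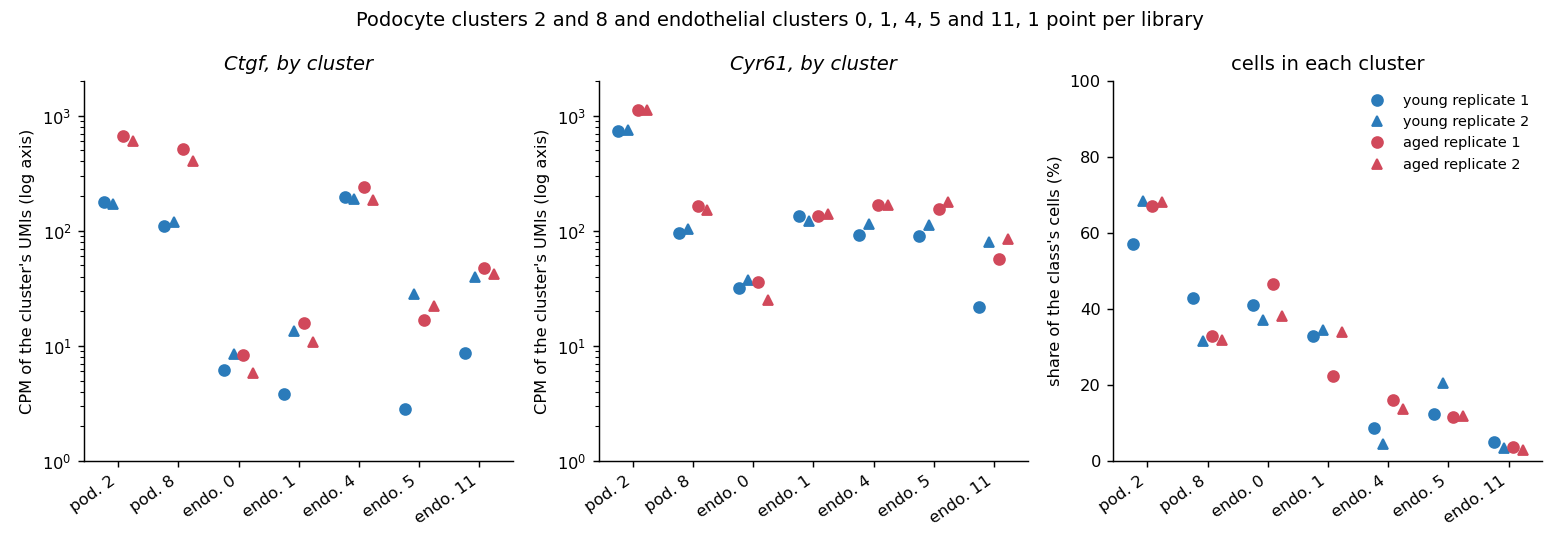
CPM of each cluster's UMIs (log axis) for Ctgf and Cyr61 in the 2 podocyte and 5 endothelial clusters, and the percent of the class's cells in each cluster, with 1 point per library. Ctgf is higher with age in podocyte clusters 2 and 8, and in endothelial cells it is concentrated in cluster 4, whose share of cells is larger in the aged libraries (16% and 13.7% against 8.66% and 4.58%).

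The mesangial cells of both ages formed 1 cluster. Cdkn2a, which encodes the senescence marker p16, had a UMI in 79 and 74 aged mesangial cells. Their Ctgf level was 1035 and 1455 CPM, against 982 and 1557 CPM in the 590 and 408 aged cells without one. The order of the 2 kinds of cell was opposite in the 2 aged libraries, and the young libraries had 1 such cell each.

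Cyr61 was highest in podocytes. Podocytes had 529 and 586 CPM in young and 923 and 967 CPM in aged libraries, a 1.69-fold higher mean (log2 difference 0.76) without overlap. The share of thinned podocytes with a Cyr61 UMI was 27.6% and 34.7% young and 42.2% and 43.4% aged. The mean of the aged shares was 11.7 percentage points above the young mean.

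Within podocytes Cyr61 was split between the clusters. Cluster 2 had 730 and 757 CPM young and 1122 and 1131 CPM aged, and cluster 8 had 95.3 and 105 CPM young and 163 and 151 CPM aged. Cyr61 was among the genes the clusters were built from, so the gap between clusters is no test. Cluster 2 held 94.2% to 96.7% of podocyte Cyr61 UMIs but 57.2% to 68.4% of the cells. In both clusters the aged libraries lay above the young ones.

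In the other classes Cyr61 differed little with age. Endothelial cells had 78.3 and 79.7 CPM young and 93.1 and 105 CPM aged (log2 difference 0.32). Mesangial cells had 211 and 345 CPM young and 201 and 294 CPM aged, which overlap. Cluster 16 had 317 and 567 CPM young and 383 and 641 CPM aged, again overlapping, and replicate 2 was the higher library at both ages in both classes. The mesangial difference of -0.16 ran from -0.48 to 0.23 when single libraries were left out and was 0.18 with mixed clusters kept.

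Nov had few UMIs in these glomeruli. It had no UMI in podocytes or cluster 16 of any library and 1 UMI in mesangial cells, so it passed the expression filter in endothelial cells only. There it had 18 and 2 UMIs in young and 20 and 28 UMIs in aged libraries, or 2.81, 0.461, 1.30 and 1.80 CPM. These levels overlapped between ages. The young UMIs came from 1 cell among 2413 and 1 among 1420, and the aged ones from 11 among 6029 and 10 among 4303. No Nov UMI in 1757 podocytes of young replicate 1 allows up to 0.210% of cells with a UMI at this depth, which does not limit the share of cells expressing it. Smooth muscle and renin cells had 2 and 4 Nov UMIs when aged and none when young.

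Ankrd1, which encodes a stress-induced ankyrin repeat protein of muscle and other cells, was highest in cluster 16 and higher with age in 3 classes. Cluster 16 had 317 and 343 CPM young and 622 and 806 CPM aged (log2 difference 1.12). Podocytes had 18.4 and 14.3 CPM young and 36.1 and 60.9 CPM aged (log2 difference 1.52). Mesangial cells had 9.79 and 18.2 CPM young and 35.1 and 44.0 CPM aged (log2 difference 1.58). In each of these classes the aged libraries lay above the young ones, and the differences were at least 0.94 in all settings run.

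Endothelial cells had no Ankrd1 UMI when young and 4 and 3 when aged, too few for the filter. Ankrd1 thus stood higher in aged mesangial cells, where Ctgf stood lower, and in aged podocytes, where Ctgf stood higher. The podocyte values differed between clusters: the aged libraries had 39.0 and 69.6 CPM in cluster 2 and 24.0 and 15.8 CPM in cluster 8, against 19.1 and 15.7 CPM and 16.5 and 12.2 CPM when young. In cluster 8 the ages overlapped.

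The angiomotin-like genes took separate places. Amotl1 was highest in mesangial cells, at 444 and 511 CPM young and 348 and 385 CPM aged (log2 difference -0.38). Endothelial cells had 211 and 240 CPM young and 172 and 185 CPM aged (-0.34). In both classes the aged libraries were below the young ones. Cluster 16 had 60.4 and 53.2 CPM young and 26.1 and 20.2 CPM aged (-1.30), from 6 to 9 UMIs per library. Podocytes had 23 and 28 Amotl1 UMIs young and 5 and 10 aged, or 3, 8.19, 0.898 and 2.10 CPM (-1.77). In B cells Amotl1 had 2 UMIs in aged replicate 2, or 21.7 CPM, and 0 in every other library. The podocyte level, from few UMIs, was below the B cell level in aged replicate 2 only. The B cells held 92276 to 142131 UMIs per library, too few for a 0 to place podocytes above background. Averaged over the libraries, podocytes had the lowest level of 7 classes, at 3.60 CPM of class UMIs against 5.42 in B cells.

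Amotl2 was highest in podocytes and did not separate by age there. Podocytes had 213 and 255 CPM young and 242 and 341 CPM aged, and cluster 16 had 204 and 236 CPM young and 196 and 217 CPM aged. Mesangial cells had 86.3 and 112 CPM young and 55.5 and 95.8 CPM aged, overlapping. Endothelial cells had 63.9 and 84.6 CPM young and 44.1 and 63.6 CPM aged (log2 difference -0.46): the ranges did not overlap, but young replicate 1 and aged replicate 2 differed by under 1 CPM.

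Yap1 was present at similar levels in all glomerular classes and slightly higher in the aged libraries of each. Podocytes had 49.4 and 57.6 CPM young and 68.2 and 67.4 CPM aged (log2 difference 0.36). Endothelial cells had 46.6 and 58.1 CPM young and 81.6 and 75.4 CPM aged (0.59), and mesangial cells 66.7 and 73.7 CPM young and 78.6 and 83.9 CPM aged (0.22). Cluster 16 had 30.2 and 70.9 CPM young and 74.0 and 95.3 CPM aged (0.70), from 4 to 33 UMIs. The endothelial difference came largely from cluster 0, led by Sele and Plaur, with 51.0 and 72.1 CPM young and 99.3 and 93.3 CPM aged.

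Averaged over the libraries, Wwtr1 was highest in endothelial cells, with 250 and 224 CPM young and 301 and 299 CPM aged (log2 difference 0.34). Cluster 16 had 227 to 307 CPM, which overlapped the endothelial values, and its ages overlapped too. Podocytes had 103 and 104 CPM young and 102 and 115 CPM aged, also overlapping. Mesangial cells had 86.3 and 79.4 CPM young and 114 and 96.0 CPM aged (0.34), but -0.21 with mixed clusters kept.

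Of the 8 genes, 7 passed the filter in each glomerular class. In podocytes the libraries of the 2 ages did not overlap for 4 genes higher with age (Ctgf, Cyr61, Ankrd1 and Yap1) and 1 lower (Amotl1), where 45.9% of all genes tested were likewise separated. In endothelial cells 4 were higher and 2 lower (48.8% of all genes separated), in mesangial cells 3 and 2 (54.3%), and 3 were higher and 1 lower in cluster 16 (47.6%). Separation of 2 libraries from 2 is thus common, and since these contrasts chose the genes the counts are given as description.

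**Figure D4:**
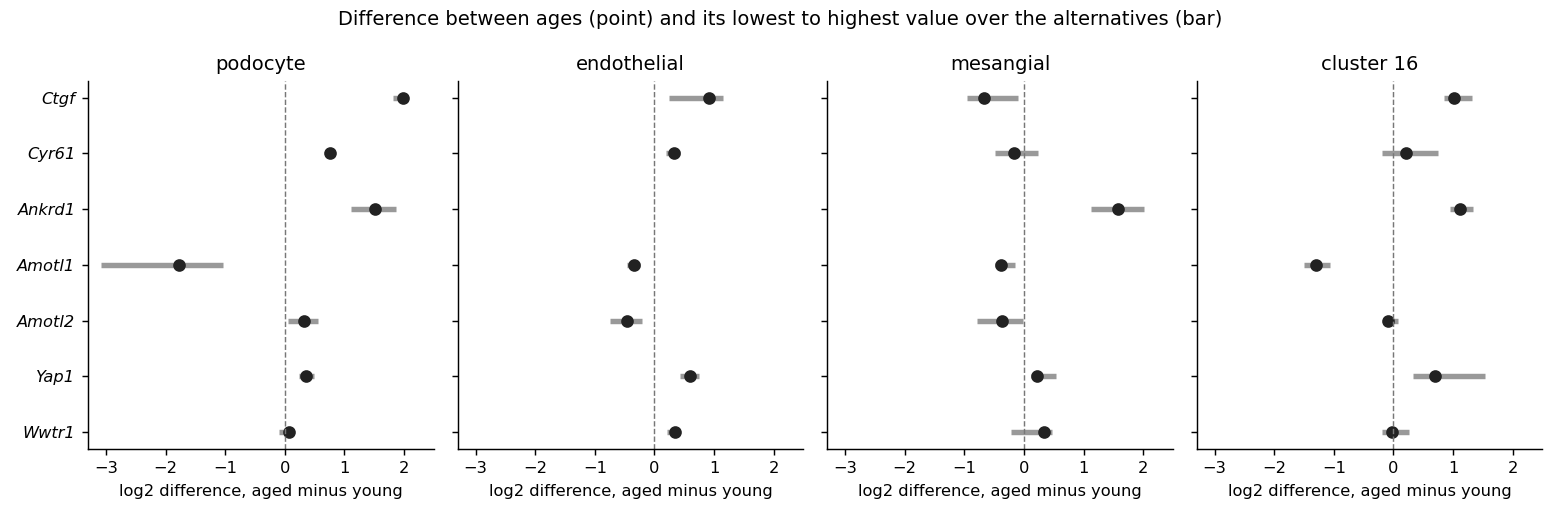
Log2 difference, aged minus young, of 7 genes in each class (point), with the lowest and highest value over the alternatives (grey bar). Nov is not drawn, and Ankrd1 has no endothelial value. The Ctgf bar lies between 1.81 and 2.05 in podocytes and between -0.96 and -0.094 in mesangial cells.

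The order of the classes was compared on the UMIs of all 7 classes with at least 20 cells in every library. For Ctgf it ran from mesangial (1699 ± 561 CPM, SD over 4 libraries) through cluster 16, podocyte and smooth muscle and renin to endothelial cells, and only the step from smooth muscle and renin to endothelial cells was free of overlap. For Amotl1 the first 3 steps, from mesangial through endothelial and smooth muscle and renin to cluster 16, were free of overlap. For Amotl2 podocytes and cluster 16 did not differ beyond their spread (lowest podocyte value 211.3 CPM, highest cluster 16 value 211.2 CPM, and overlapping after TMM scaling), and both stood clear above mesangial cells. For Ankrd1 cluster 16 stood clear above podocytes. Yap1 overlapped between every neighbouring pair of glomerular classes and stood clear above the monocyte and B cell classes.

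Cells with Ctgf were compared with the rest for Cyr61. In thinned podocytes Cyr61 was found in 29.4%, 43.4%, 46.8% and 56.1% of cells with a Ctgf UMI (young replicates 1 and 2, then aged replicates 1 and 2) and in 27.3%, 33.2%, 39.6% and 36.9% of cells without. The share was higher beside Ctgf in each library, least so in young replicate 1. In such sparse counts this is a description.

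Between classes, the age difference of Ctgf was -2.67 on the log2 scale (mesangial minus podocyte), the largest in size of the 7 genes. Cyr61 and Amotl2 had -0.91 and -0.72, and Amotl1 had 1.34 from the few podocyte UMIs given above. Ankrd1, Yap1 and Wwtr1 had 0.09, -0.13 and 0.27, so their differences between ages were close in the 2 classes. These carry no test, for the same reason.

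The wider pathway was read from 8 gene lists, tested with edgeR's quasi-likelihood test and Benjamini-Hochberg adjustment over all genes of a class, and a gene was called at an adjusted p under 0.05. Podocytes had 10895 tested genes, of which 5.51% passed (3.61% up and 1.9% down with age). Of the YAP target signature without the 8 genes, 3 of 14 tested genes rose and none fell. These were Gadd45a, a stress gene of DNA repair (log2 difference 0.68 ± 0.14 SE, adjusted p = 0.00297), F3, which encodes tissue factor (0.61 ± 0.13, adjusted p = 0.00307), and the kinase gene Nuak2 (0.84 ± 0.20, adjusted p = 0.00879). The list's median was 0.21, against 0.00 for all genes tested.

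The TEAD cofactor Vgll3 rose in podocytes from 17.1 and 20.2 CPM to 39.9 and 51.3 CPM (log2 difference 1.31 ± 0.17 SE, edgeR adjusted p = 1.25e-05), alone among 5 TEAD factors and cofactors. None of 20 Hippo regulators was called in podocytes by edgeR (1 at an unadjusted p under 0.05), and neither was any of 6 CCN receptor genes (0 unadjusted). DESeq2 also called none in either list. Of 13 SRF and actin genes 3 rose: Tagln (log2 difference 1.31 ± 0.16 SE, edgeR adjusted p = 3.02e-06), Filip1l (0.76 ± 0.18, adjusted p = 0.00945) and Tpm1 (0.53 ± 0.14, adjusted p = 0.0176). Tagln, an actin-binding gene of smooth muscle, is also on the smooth muscle and renin marker list. That list, Tagln included, summed to 22.9 and 28.6 CPM in young and 51.8 and 49.7 CPM in aged podocytes. Of its 7 markers 6 and 5 were detected in young and 6 and 3 in aged libraries, with Cnn1 at 0 in every library. The part of the list in the Tagln difference was not tested.

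Of 7 TGF-beta response genes in podocytes 2 rose, among them Bhlhe40, and Tgif1 fell. Bhlhe40, a circadian repressor, had 93.8 and 125 CPM young and 215 and 205 CPM aged. Tgif1, a repressor of SMAD signalling, had 12.1 and 10.5 CPM young and 1.97 and 2.73 CPM aged (log2 difference -2.29 ± 0.32 SE, edgeR adjusted p = 2.91e-05). The genes of the list thus did not move as 1 group.

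Dissociation and immediate early genes can mark handling of the tissue, and Ctgf and Cyr61 are themselves quickly induced. In podocytes 4 of the 15 rose, Atf3, Hspa1a, Hspa1b and Ier3 (the last outside the rule for named genes), and Dusp1 fell. Fos had 10940 and 10389 CPM young and 9347 and 9447 CPM aged. Hspa1a had 2135 and 1862 CPM young and 2672 and 5650 CPM aged, so aged replicate 2 carried much of its difference. The part of this list in the podocyte level of Ctgf was not tested.

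Across the lists edgeR called 15 genes in podocytes. Leaving out 1 aged library lowered that to 8 or 7 and leaving out young replicate 2 raised it to 31. With mixed clusters kept edgeR called none (23 at an unadjusted p under 0.05), and the log2 difference of Tagln turned to -0.31.

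The mesangial test covered 10658 genes, of which 6.65% passed (4.32% up and 2.34% down with age). The TGF-beta response list moved in 1 direction: 6 of 9 tested genes rose and none fell, with a list median of 1.05 against -0.01 for all genes. Bhlhe40 rose from 94.3 and 89.0 to 241 and 209 CPM (log2 difference 1.29 ± 0.16 SE, edgeR adjusted p = 0.00078). Tgif1 and Pmepa1 rose by 1.69 and 1.14 on the log2 scale. Ctgf, often read as a TGF-beta target, stood lower in the same cells.

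Of 15 tested YAP signature genes in mesangial cells, 2 fell and none rose. Ccdc80, which encodes a secreted matrix protein, fell from 305 and 303 to 133 and 135 CPM (log2 difference -1.18 ± 0.14 SE, edgeR adjusted p = 0.000644), and the exchange factor gene Arhgef17 fell too (-0.58). The list's median was nonetheless 0.18. Among 22 Hippo regulators Fat1, a giant cadherin, rose and Ajuba, a LIM-domain inhibitor of the kinases, fell.

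Wisp1 (a further CCN gene) rose in mesangial cells from 18.4 and 17.2 to 43.3 and 39.0 CPM (log2 difference 1.20 ± 0.22 SE, edgeR adjusted p = 0.00851), opposite to Ctgf in the same cells. Of 9 receptor genes for CCN proteins, the integrin genes Itgav and Itgam rose and the coreceptor gene Lrp6 fell. Itgam, a leukocyte integrin, had 0.612 and 0 CPM young and 4.08 and 4.61 CPM aged, and was called in 5 of its 9 alternatives. The 6 macrophage markers summed to 7.51 and 11.9 CPM in young and 13.4 and 15.4 CPM in aged mesangial cells, with Adgre1 at 0 except in aged replicate 1, and their part in the Itgam difference was not tested. EdgeR and DESeq2 called none of 14 SRF and actin genes (3 with an unadjusted edgeR p under 0.05) and none of 4 TEAD factors and cofactors (1 unadjusted).

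Of 15 immediate early genes in mesangial cells 5 fell, none rose and 10 were not called, with a list median of -0.37 against -0.01 for all genes. Egr1 had 1063 and 1559 CPM young and 452 and 591 CPM aged, and Btg2, Atf3 and Jun fell too (log2 differences -1.22, -0.87 and -0.99). The fifth, Nr4a1, stands outside the rule for named genes. Ctgf was lower in the same libraries, and aged replicate 1 was the lower aged library for Ctgf, Egr1, Btg2, Atf3 and Jun alike. It was also the lower aged library for Cyr61, Ankrd1, Amotl1, Amotl2 and Yap1, though not for Wwtr1. The order was thus not particular to Ctgf and the immediate early genes. The part of the immediate early genes in the Ctgf difference was not tested.

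The mesangial list calls rest on both young libraries. Without young replicate 1 or without young replicate 2, edgeR called none of the 19 (24 and 27 list genes at an unadjusted p under 0.05), and without aged replicate 2 it called 38.

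The endothelial test covered 13173 genes, of which 6.08% passed (3.94% up and 2.14% down with age). The TGF-beta response list again moved 1 way, with 5 of 9 genes higher, none lower and a median of 0.64 against -0.01 for all genes. Skil rose from 193 and 187 to 404 and 262 CPM (log2 difference 0.81 ± 0.18 SE, edgeR adjusted p = 0.00861), and Bhlhe40, Pmepa1 and Tgif1 rose by 0.64, 0.69 and 0.91.

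The YAP signature split in endothelial cells: of 16 genes, Gadd45a, Nt5e and Crim1 rose and Ccdc80 and Arhgef17 fell, Crim1 standing outside the rule for named genes. Ccdc80 had 188 and 166 CPM young and 116 and 115 CPM aged. Tead3 was the 1 TEAD gene of 5 that rose, from 1.72 and 1.15 to 5.70 and 5.39 CPM. Amot, the angiomotin gene, was the 1 of 22 Hippo regulators called and fell from 36.4 and 41.3 to 20.4 and 27.3 CPM (log2 difference -0.70 ± 0.17 SE, edgeR adjusted p = 0.0143).

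Of 10 receptor genes in endothelial cells, Itgb3 rose from 5.79 and 8.99 to 20.9 and 15.6 CPM, and Itgb5 and Itga6 fell (log2 differences -0.81 and -0.70). Dusp1 and Ier3 rose among the immediate early genes, and Cnn2 fell among 14 SRF and actin genes. Wisp1, the 1 tested gene of the further CCN genes, had a log2 difference of 2.72. It was not called by edgeR or DESeq2 (1 gene at an unadjusted edgeR p under 0.05). Without either young library edgeR called none of the 18 (30 and 27 at an unadjusted p under 0.05). The same held without a filter on low counts (29), whereas DESeq2 called 18 list genes.

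The cluster 16 test covered 4215 genes, of which 3.44% passed (1.78% up and 1.66% down with age). F3 rose from 68.0 and 142 to 431 and 465 CPM (log2 difference 2.04 ± 0.28 SE, edgeR adjusted p = 0.00147) and Tgfb2 rose by 1.75, the 2 called genes of 11 in the YAP signature. The list's median was -0.48. Of 12 SRF and actin genes, Actg1, Tagln2 and Tagln rose by 1.05, 1.18 and 0.61.

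Of 15 immediate early genes in cluster 16, 7 fell and none rose. Markers of other classes were lower there with age as well: the endothelial list, with Plvap at 0 in every library, summed to 251 and 417 CPM young and 115 and 42.6 CPM aged, and the podocyte list, all 8 detected, to 1032 and 1458 CPM against 731 and 782 CPM. Their part in these changes was not tested. Jun had 3423 and 3250 CPM young and 1058 and 1453 CPM aged, and Egr1, Fosb and Zfp36 fell too (log2 differences -1.46, -1.28 and -1.28). Ctgf stood higher with age in cluster 16 while these genes stood lower, and in mesangial cells both stood lower. The part of the immediate early genes in either Ctgf difference was not tested. EdgeR and DESeq2 called none of 13 Hippo regulators, 7 CCN receptor genes, 5 TGF-beta response genes and 2 TEAD genes in cluster 16 (4, 3, 2 and 0 with an unadjusted edgeR p under 0.05). Tagln counts also among the smooth muscle and renin markers, whose sums in cluster 16, higher in the aged libraries, are given above.

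**Figure D5:**
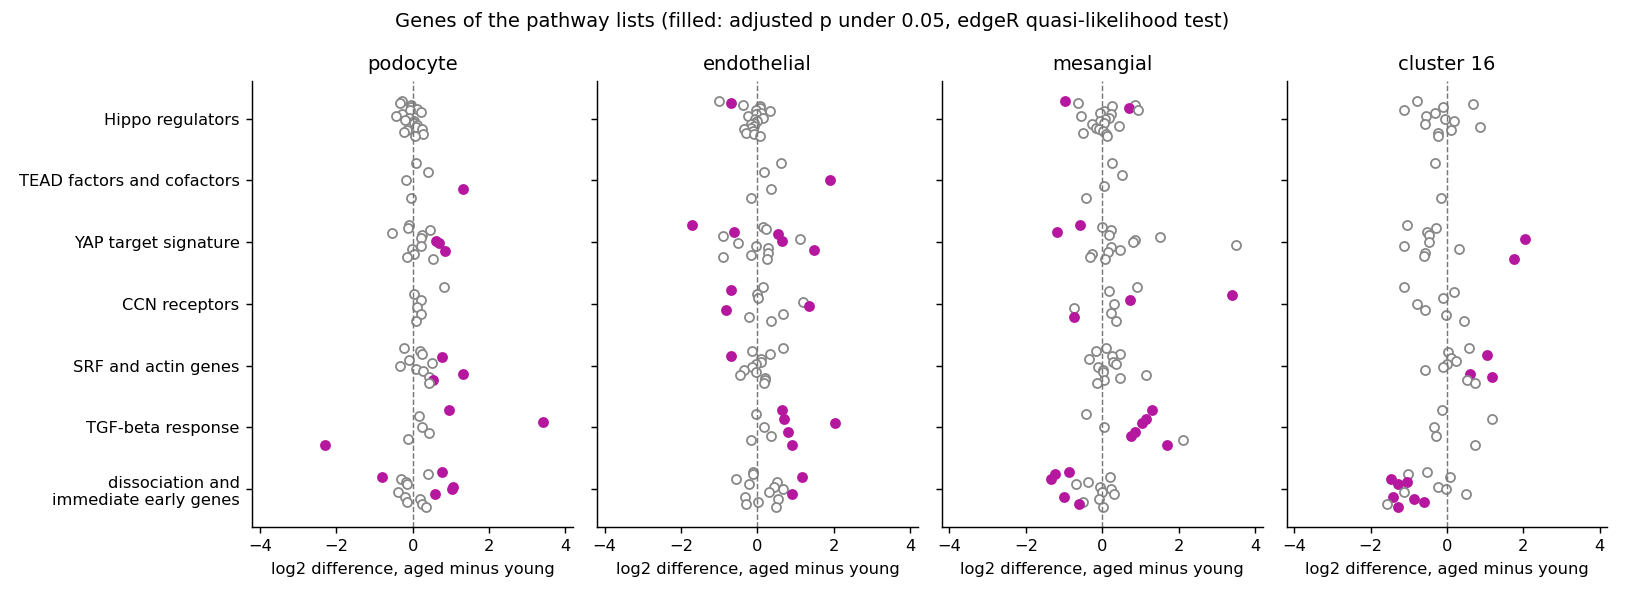
Log2 difference, aged minus young, of each tested gene of 7 lists in each class, where filled points passed an adjusted p of 0.05 (edgeR quasi-likelihood test). TGF-beta response genes lie to the right in mesangial and endothelial cells (6 and 5 called, all higher), and immediate early genes lie to the left in mesangial cells and cluster 16 (5 and 7 called, all lower).

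Whether a list gene's age difference itself differed between mesangial cells and podocytes was tested as an interaction in edgeR with the library as a block, where 4.12% of 12617 genes were called. Of the immediate early genes 8 of 15 were called: 7 differences were more positive in podocytes, among them Atf3 (-1.63 ± 0.19 SE, mesangial minus podocyte, adjusted p = 3.02e-07) and Btg2 (-1.62 ± 0.20, adjusted p = 7.70e-07). Dusp1 went the other way (1.01). The Ctgf value was -2.67, but its sign was given by the choice of the gene, and its relation to those 7 was not tested.

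The TGF-beta response genes Tgif1, Smad7 and Pmepa1 were more positive in mesangial cells, by 3.99, 0.89 and 0.95 on the log2 scale. Of 17 YAP signature genes 1 was called, Igfbp3, which encodes a binding protein of insulin-like growth factors. It had 1.22 and 0.957 CPM in young and 4.53 and 21.4 CPM in aged mesangial cells, and its interaction value of 5.71 turned to -0.30 without young replicate 2. When cells were named one by one, 2 list genes were called in this comparison, against 18 otherwise.

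The genes whose level ran most like each member were taken from the 16 sums of 4 classes and 4 libraries (Pearson correlation of log2(CPM + 1), mean CPM of at least 20). The sums share libraries and their depth, so no p is given. For Ctgf they were Khdrbs3 (r = 0.96), Gpc3 and Axl, the last a YAP target on the signature list. For Ankrd1 they were Actn1 (0.97), Prss23 and Hmgn1, for Cyr61 Nupr1 (0.96), P3h2 and Il6ra, and for Amotl2 Tmem106b (0.96), Gas1 and Arhgap24. Amotl1 had Camkk2 (0.99), Marcksl1 and Efnb2, and Wwtr1 had S100a1 (0.97), Rps6ka3 and Ltbp4.

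Yap1 had Nr1d1 (0.92), Tank and Mtmr3, and Nov, at a mean of 0.451 CPM, had Ipo11 (0.91), Atox1 and Vdac3. With Spearman correlation 2 of the 3 named genes were kept for Ankrd1 and Amotl2, 1 for Ctgf and Wwtr1, and none for Cyr61, Nov, Amotl1 and Yap1. Among the members themselves the highest correlation was that of Amotl2 with Cyr61 (0.89) and the lowest that of Amotl1 with Amotl2 (-0.88). Yap1 and Ctgf had 0.08.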

How the data were processed

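Glomerular cells of 2 young and 2 aged mouse libraries were measured with a droplet 3' single-cell RNA assay. The deposited matrices hold counts of UMIs per gene and barcode, already limited by the authors to called cells. Per the labels' protocols these were made with Cell Ranger 3.1.0 on GRCm38, whereas the file headers and the submitters' processing notes give 6.0.1, and those notes also name Partek.

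Barcodes with at least 500 genes and at most 20% mitochondrial UMIs were kept. Doublets were removed by rank at 0.8% per 1000 barcodes, since the caller's default marked 0.449% of 29876 barcodes (1876, or 6.28%, were removed). Cells were clustered with Scanpy 1.11.5 and leidenalg 0.10.2 (2000 variable genes, 30 principal components, 15 neighbours, resolution 1), and Ctgf, Cyr61, Nov and Ankrd1 were among the variable genes. A cluster met the level of a class when its averaged relative marker level was at least 0.35 of the best cluster, with at least 3 markers detected. It was called mixed when an unrelated class reached 0.25 or more of the level of its best class, and was named otherwise. Single cells of named clusters were then set aside when more than 1 marker of an unrelated class was detected, at 0.25 or more of that class's best cluster. These were 40 and 359 young and 116 and 116 aged cells.

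UMIs were summed per class and library and fitted in R 4.3.3 with edgeR 4.0.16 (TMM, filterByExpr, quasi-likelihood test of age, Benjamini-Hochberg adjustment over all genes of the class, threshold 0.05). DESeq2 1.42.0 was an alternative. The fit was tested on simulated data. Total depth was 18457791 to 42046542 UMIs per library, and intervals are exact 95% binomial ones for counting error only. Other alternatives were library totals, no count filter, the replicate number as a block, each library left out, other cell filters, other ways to name cells, and thinning to 1000 UMIs. The named genes are the 8 genes in every class, up to 4 called genes of each list and class by smallest p, and the 3 genes most like each member. The 8 genes and the lists were chosen with earlier results of these data known. The counting of reads by strand is not given in the sources used here. The values of 1 list gene are not reported here.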

Additional observations from a re-analysis of the deposited data

Results flagged for a closer look

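The age difference of Ctgf ran in opposite directions in 2 cell classes: the aged libraries were higher than each young one in podocytes and lower in mesangial cells, a difference between classes of -2.67 on the log2 scale (mesangial minus podocyte). It was not tested, since this contrast chose the gene.

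For 18 list genes the age difference itself differed between mesangial cells and podocytes in edgeR's interaction test, at a Benjamini-Hochberg adjusted p under 0.05. Among immediate early genes the log2 values (mesangial minus podocyte) were -1.63 for Atf3, -1.62 for Btg2, -1.02 for Egr1, -1.02 for Hspa1a, -0.86 for Nr4a1, -0.80 for Jun, -0.74 for Hspa1b and 1.01 for Dusp1. The TGF-beta response genes had 3.99 (Tgif1), 0.95 (Pmepa1) and 0.89 (Smad7). The receptor genes had -0.94 (Lrp6), -0.85 (Itgb5) and 0.68 (Itgav), and the Hippo regulators Fat1 and Map4k4 had 0.71 and 0.64. Filip1l had -1.10, and Igfbp3 had 5.71, which turned to -0.30 without young replicate 2.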

How the results depend on the processing

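Of 28 differences between ages of the 8 genes, 21 kept their sign in every setting run. In podocytes Ctgf ranged from 1.92 to 2.05 with single libraries left out, and was 1.85 with mixed clusters kept and 1.81 after thinning. In mesangial cells it was -0.094 with mixed clusters kept. Among 61 results of tested list genes, 669 of 880 alternative values kept direction and call, 210 kept direction only, and 1 reversed, Tagln in podocytes with mixed clusters kept (-0.31). Of 18 interaction results, 42 of 108 alternative values lost their call and 1 reversed (Igfbp3, -0.30 without young replicate 2 and up to 7.47 without young replicate 1).

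In podocytes the 600 called genes were 264 with DESeq2, 270 with cells named one by one, 40 with mixed clusters kept, 220 after thinning and 280 to 1295 with a library left out. The 15 list genes were 8 with cells named one by one, 0 with mixed clusters kept (23 at an unadjusted p under 0.05 in edgeR) and 7 to 31 with a library left out. In endothelial cells the 801 were 503 with DESeq2, 0 without a count filter (2272 at an unadjusted p under 0.05 in edgeR), 498 after thinning and 6 to 774 with a library left out. The 18 list genes were 0 without a count filter (29 unadjusted in edgeR, 18 called by DESeq2) and 0 to 16 with a library left out. In mesangial cells the 709 were 392 with DESeq2, 1295 without a count filter, 189 after thinning and 27 to 1902 with a library left out. The 19 list genes were 30 without a count filter, 10 after thinning and 0 to 38 with a library left out. In cluster 16 the 145 were 44 with DESeq2, 271 without a count filter, 92 without doublet removal and 43 after thinning, and the 12 list genes were 7 with DESeq2 and 12 to 20 with a library left out. The 520 interaction calls were 20 with cells named one by one and 273 to 814 with a library left out, and the 18 list genes 2 and 9 to 19. The cause was not tested.

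With the replicate number as a block, called genes were 1321 in endothelial, 1570 in mesangial and 268 in cluster 16, and mesangial list genes 32. Same-numbered libraries correlated at -0.02 to 0.07 in their deviations, so the numbers were not taken as a pairing. Cluster 16 rests on few UMIs, and its marker class had no value at resolution 0.5 or at most 10% mitochondrial UMIs.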
